A study of Bos taurus with 15 samples.

Results

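GDF9, BMP15, FST, INHA and INHBA encode growth factors of the TGF-beta family, or parts of them, and a protein that binds them. They were followed in bovine oocytes and embryos from fertilization to the blastocyst. The members were all probe sets that the platform's annotation, updated through gene identifiers, assigns to these 5 symbols. There were 6 such probe sets among 24016 on the array, and 5 genes among the 9155 that the array named. GDF9, FST, INHA and INHBA had 1 probe set each. BMP15 had a pair whose identifiers end in S1_at and A1_at and which are called BMP15 S1 and BMP15 A1 here.

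The study hybridized amplified RNA of Bos taurus oocytes and of embryos at successive stages to Affymetrix bovine expression arrays. There were 15 arrays: 3 of oocytes, 2 of 1-cell embryos, 1 each of 2-cell, 4-cell, 8-cell and 16-cell embryos, 3 of morulae and 3 of blastocysts. All stages came from untreated oocytes of 2 to 6 mm follicles, selected with their cumulus. The labels describe maturation in medium with LH, FSH and fetal calf serum. Embryos were made by in vitro fertilization and cultured in SOF medium after cumulus was removed by vortexing. The labels give no strain or donor age, do not say how many oocytes or embryos made 1 sample, and do not say whether the oocyte samples were taken before or after maturation or with cumulus still attached.

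GDF9 and BMP15 are secreted by the oocyte and act on the surrounding granulosa and cumulus cells through type I and type II serine/threonine kinase receptors and SMAD proteins. GDF9 is known to signal through SMAD2 and SMAD3, and BMP15 through SMAD1 and SMAD5. INHBA encodes the beta A subunit: a pair of these makes activin A, and 1 joined to the alpha subunit encoded by INHA makes inhibin A, which opposes activin. FST encodes follistatin, a secreted protein that binds activin tightly and keeps it from its receptors.

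The values are signals on a linear intensity scale as the authors deposited them. They show a transcript's share of the amplified RNA on an array, not its amount per embryo. In such bulk samples, fewer cells of a type and less RNA per cell cannot be told apart. Log2 differences below are differences of log2(signal + 16), which understates the change of low signals, and SD denotes the spread between arrays of 1 stage. Over the 15 arrays the median signal lay between 39.7 and 62.1 and the mean between 553 and 713. No detection call was used, so no signal has a stated limit of background. Signals of different probe sets were not set against each other, except where marker lists are summed below. As for stage markers, the zona pellucida gene ZP2 lay between 9661 and 12718 on every array from the oocyte to the 8-cell stage and between 19.9 and 146 on the morula and blastocyst arrays. The epithelial keratin KRT18 lay between 3.62 and 35.5 in oocytes and between 7120 and 10988 in blastocysts. Another keratin, KRT7, lay between 191 and 527 in blastocysts but already read 473 on the 8-cell array and 26.2 on the 16-cell array, so it did not separate those stages.

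The arrays numbered 3 stood apart from the others of their stages. Oocyte arrays 1 and 2 differed by 4-fold or more at 320 probe sets, whereas oocyte array 3 differed so from them at 3065 and 2772. The same counts were 47, 2609 and 2347 for morulae and 352, 1979 and 2514 for blastocysts. The arrays also fell into a pair of classes by the signal of a bacterial spike-in control: oocyte 2 and 3, 1-cell 2, all 4 single arrays, morula 3 and blastocyst 3 carried it, and the other 6 arrays read 66.9 or less for it. Results that rest on array 3 are given without it below.

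GDF9 was high in oocytes and early cleavage embryos and low from the 16-cell stage on. In oocytes its signal was 928, 1331 and 885, a mean of 1048 ± 246 (SD, n = 3). The 1-cell arrays read 3428 and 1199, and the 2-cell, 4-cell and 8-cell arrays 2090, 1863 and 1122. The lowest of these 8 arrays, an oocyte array, was at the 84.7th percentile of all signals on its array.

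The 16-cell array gave 56.2 for GDF9, at the 50.6th percentile of that array. Morulae read 35.2, 44.9 and 41.7 (40.6 ± 4.90, SD, n = 3) and blastocysts 37.4, 24.8 and 41.5 (34.5 ± 8.69, SD, n = 3). The stages therefore split into a high set that ends at the 8-cell array and a low set that begins at the 16-cell array, and no array of one set overlapped the other. Within the high set the 1-cell arrays lay 2.86-fold apart, which covered the 2-cell and 4-cell values, and the 8-cell value lay within the oocyte range. Within the low set the morula and blastocyst ranges overlapped.

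**Figure D1:**
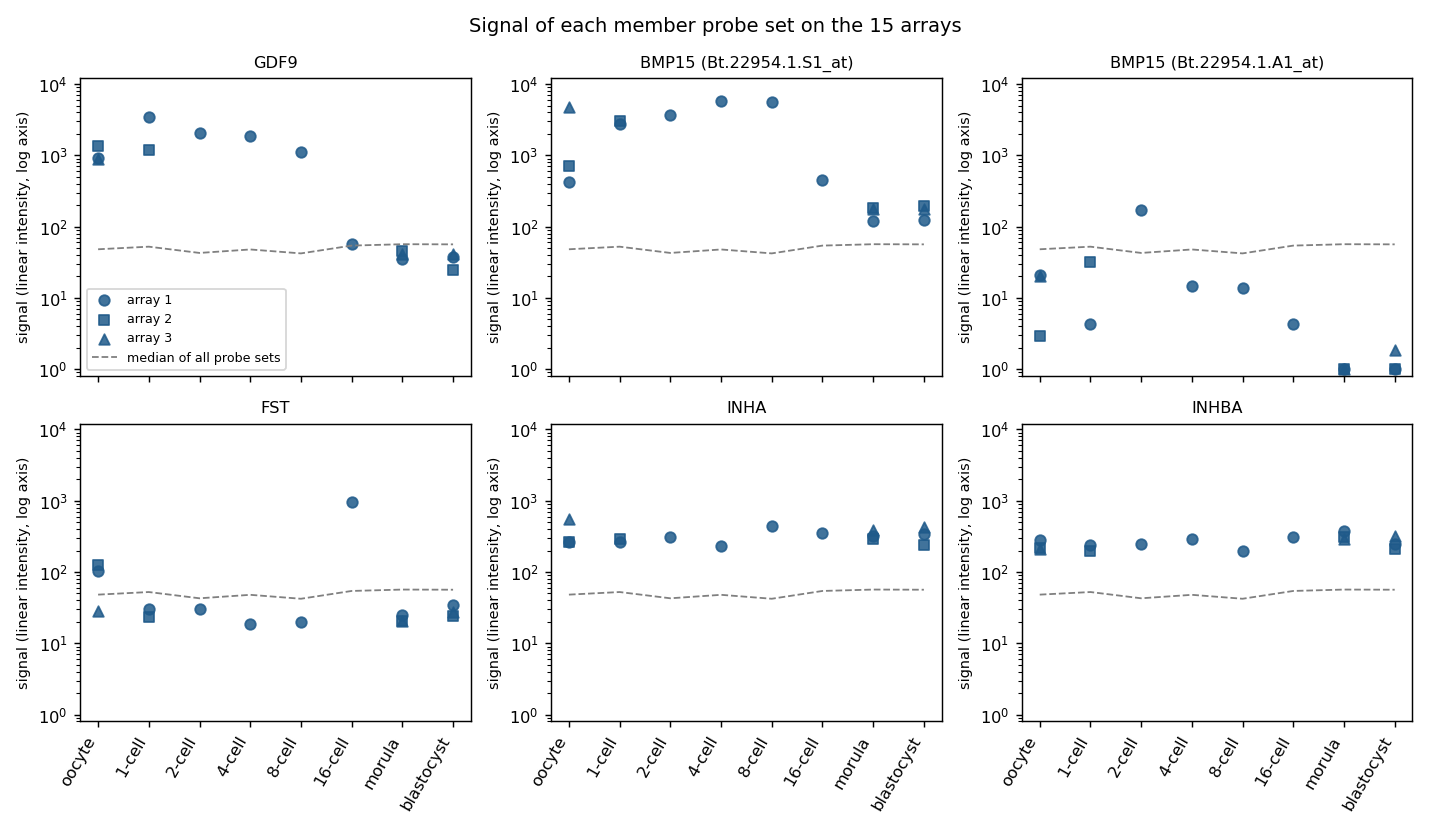
Signal of each of the 6 probe sets (vertical log axis, linear intensity units) at the 8 stages (horizontal axis), with 1 point per array and the array number as the marker shape; the dashed line is the median signal of all probe sets, averaged per stage. GDF9 and BMP15 S1 are high up to the 8-cell array and lower from the 16-cell array on, FST is high on the single 16-cell array (945), and INHA and INHBA stay between 194 and 556.

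Morulae were compared with oocytes by limma, as were blastocysts, 1-cell embryos with oocytes, and blastocysts with morulae. GDF9 fell by 4.21 on the log2 scale in morulae (SE 0.44, 95% interval -5.20 to -3.23, adjusted p = 1.80e-04), and all 3 morula arrays lay below all 3 oocyte arrays. In blastocysts it fell by 4.39 (SE 0.44, interval -5.37 to -3.40, adjusted p = 1.59e-04). These comparisons share the oocyte arrays. Across all 24016 probe sets 18.9% passed in the first comparison and 19.3% in the second, and 7.16% and 7.36% passed as lower. Of the 6 member probe sets 2 passed in each comparison, both as lower. At an unadjusted p under 0.05 there were 4 in each, where 31.6% and 31.4% of all probe sets were under it. GDF9 passed both comparisons under all 17 alternatives, with log2 differences of -4.64 to -3.39 in morulae and of -4.89 to -3.48 in blastocysts.

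Between blastocysts and morulae GDF9 did not pass (log2 difference -0.17, interval -1.16 to 0.81, adjusted p = 0.998), a comparison in which 0.167% of probe sets did. Between 1-cell embryos and oocytes 0.271% of probe sets passed, and GDF9 did not (0.97, interval -0.13 to 2.07, adjusted p = 0.745). That interval spans a small decrease and a rise of over 2 log2 units, and the 1-cell arrays lay far apart. No member probe set passed the test in either comparison, by limma with adjusted p-values; at an unadjusted p under 0.05 there were 1 in 1-cell embryos and 0 in blastocysts against morulae, where 7.59% and 7.74% of all probe sets were under it.

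BMP15, the partner of GDF9 in the oocyte, had a similar course at the probe set S1, but its oocyte arrays did not lie close together. They read 423, 708 and 4779, a mean of 1970 ± 2437 (SD, n = 3). The 1-cell arrays read 2784 and 3020, and the 2-cell, 4-cell and 8-cell arrays 3681, 5838 and 5556. The 4-cell and 8-cell arrays were above every array of the replicated stages, while oocyte arrays 1 and 2 were below every array from the 1-cell to the 8-cell stage.

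The 16-cell array read 450 for this BMP15 probe set, between oocyte arrays 1 and 2. Morulae read 120, 180 and 176 (159 ± 33.6, SD, n = 3) and blastocysts 124, 198 and 176 (166 ± 38.0, SD, n = 3). The morula and blastocyst ranges overlapped, and both lay below all oocyte arrays and below the 16-cell array. They remained between the 60.2nd and 69.4th percentiles of the signals on their arrays.

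BMP15 at this probe set fell by 2.74 on the log2 scale in morulae (SE 0.75, interval -4.41 to -1.07, adjusted p = 0.0285). In blastocysts it fell by 2.68 (SE 0.75, interval -4.35 to -1.02, adjusted p = 0.0310), and the interval against morulae was -1.61 to 1.72 (difference 0.06, adjusted p = 1). Without oocyte array 3 the differences were -1.71 (adjusted p = 0.0147) for morulae and -1.65 (adjusted p = 0.0177) for blastocysts, and without all arrays numbered 3 they were -1.79 and -1.70. The call in morulae was lost when only the compared stages were fitted (adjusted p = 0.0963) or without morula array 1, 2 or 3 (0.0895, 0.0691 and 0.0537). The call in blastocysts was lost likewise (0.104 with only the compared stages, and 0.0965, 0.0658 and 0.0617 without blastocyst array 1, 2 or 3).

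In 1-cell embryos the BMP15 difference from oocytes was 1.34 (interval -0.52 to 3.20, adjusted p = 0.871). Without the arrays numbered 3 it was 2.37 and passed (adjusted p = 0.0426), whereas with only oocyte array 3 left out the same 2.37 did not (0.0570). Of the 9 measured oocyte regulators and markers, 5 were highest of their stage on oocyte array 3 and 1, KIT, was lowest there, as was GDF9. ZP3, a zona pellucida protein, read 587, 1713 and 6332, and NLRP5, a protein of the subcortical complex of the egg, read 1549, 1166 and 6445. ZP2, at 11174, 12718 and 11905, and MOS, at 2825, 7851 and 7426, were not highest on array 3. Oocyte array 3 was at least 4-fold above both other oocyte arrays at 876 probe sets (3.65%) and at least 2-fold below both at 2996 (12.5%). The ratio of the middle to the 3' probe set of the control gene GAPDH was 0.0977, 0.237 and 0.0374 on oocyte arrays 1, 2 and 3, and that of eIF-4E 0.0388, 0.0964 and 0.235, and their part in the BMP15 values was not tested.

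**Figure D2:**
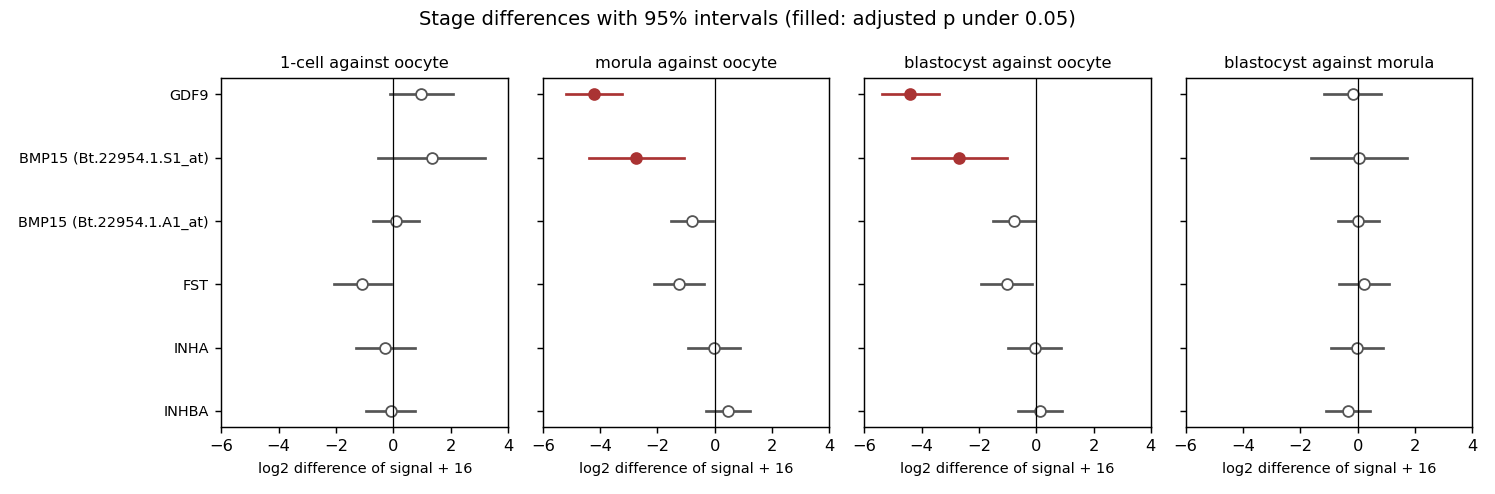
Log2 difference of signal + 16 (horizontal axis) with its 95% interval from limma for the 6 probe sets (vertical axis) in 4 comparisons; filled points have an adjusted p under 0.05. GDF9 and BMP15 S1 lie below 0 in morulae and in blastocysts against oocytes, and no probe set passes in 1-cell embryos against oocytes or in blastocysts against morulae.

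The other BMP15 probe set, A1, carried little signal. Its oocyte arrays read 21.3, 2.93 and 20.2 and its 1-cell arrays 4.27 and 32.0. The 2-cell array read 172, above all other arrays, and the 4-cell, 8-cell and 16-cell arrays 14.7, 13.7 and 4.28. Morulae read 1.00 on all 3 arrays and blastocysts 1.00, 1.00 and 1.83. This probe set had none of the 4-cell and 8-cell height of the first one and, except at the 2-cell stage, was below the median signal of its arrays. Its differences from oocytes, -0.79 in morulae (adjusted p = 0.124) and -0.77 in blastocysts (0.135), did not pass. In morulae it passed with a pseudocount of 1 in place of 16 (-2.62, adjusted p = 0.0411). Without oocyte array 2 it passed in morulae (adjusted p = 0.0401) and in blastocysts (0.0429).

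The step from the 8-cell to the 16-cell array was the largest between neighbouring stages for GDF9 and for BMP15 S1. GDF9 was lower by a log2 difference of -3.98 (15.8-fold) and BMP15 S1 by -3.58 (12.0-fold). Across all probe sets the median of this step was 0.04, and 5.77% were lower by 4-fold or more. From the 16-cell array to the morula mean the further difference was -0.36 for GDF9 and -1.43 for BMP15. Each of the 8-cell and 16-cell stages had 1 array, so these steps have no replicate check.

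Of the 9 measured genes of a list of oocyte regulators and markers, 3 were lower by 4-fold or more at the same step. KPNA7, an oocyte importin, had a log2 step of -2.80, NLRP5 of -2.28 and the zona pellucida gene ZP4 of -2.02. ZP2 had -1.76, KIT -1.38, ZP3 -1.30 and MOS, the kinase that holds the egg in metaphase, -0.68. No gene of that list had as low a step as GDF9 or BMP15, and UCHL1 went the other way, from 61.3 on the 8-cell array to 5382 on the 16-cell array, after 6831 or more on every earlier array. Against oocytes 7 of the 9 were lower in morulae and 7 in blastocysts, with median log2 differences of -5.35 and -5.63, where the medians of all named genes were 0.14 and 0.10. KPNA7 fell by 7.30 in morulae (adjusted p = 1.09e-05), ZP2 fell by 6.94 (2.63e-05) and MOS fell by 6.25 (1.61e-04).

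**Figure D3:**
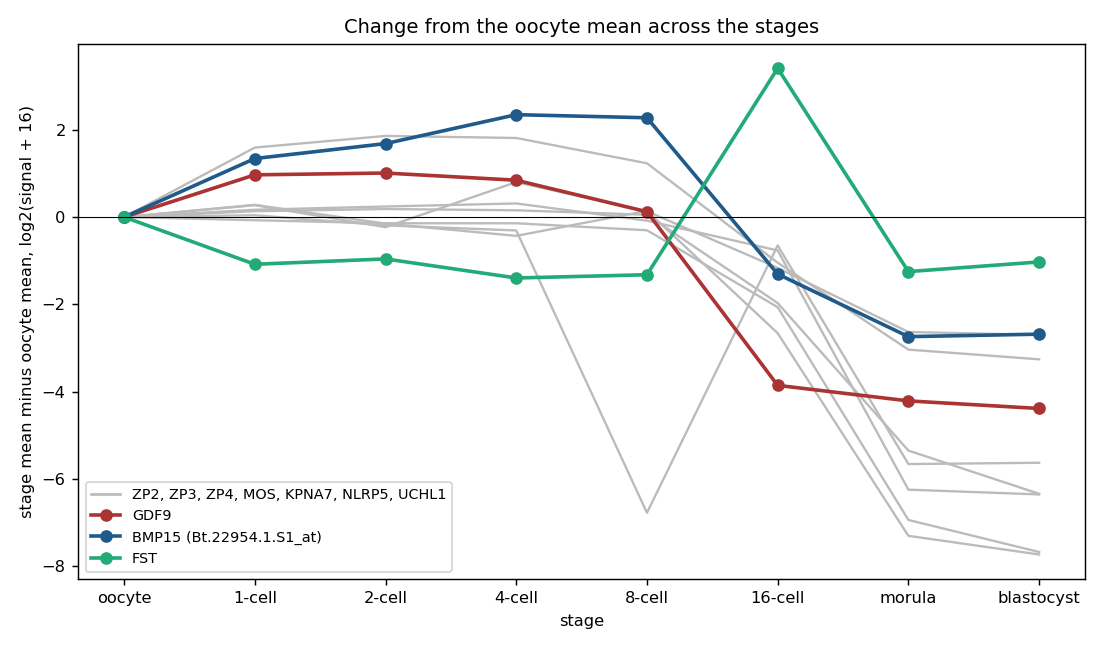
Stage mean minus oocyte mean of log2(signal + 16) (vertical axis) at the 8 stages (horizontal axis) for GDF9, BMP15 S1, FST and, in grey, the 7 oocyte genes that were lower in morulae. GDF9 is at -3.86 and BMP15 at -1.31 on the 16-cell array, FST lies above 0 there and below 0 at all later and earlier embryo stages, and the grey line that dips on the 8-cell array is UCHL1.

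The ratio of middle to 3' signal was not the same at all stages. For GAPDH it lay between 0.0374 and 0.257 on the 9 arrays from the oocyte to the 16-cell stage. On the morula and blastocyst arrays it lay between 0.100 and 0.643, and only 1 of these 6 later arrays lay within the earlier range. For eIF-4E the ranges were 0.0388 to 0.272 and 0.0490 to 0.887, and 5 of the 6 later arrays lay within the earlier range. The part of this ratio in the lower GDF9 and BMP15 signals was not tested. Within the arrays that carried the spike-in control, GDF9 in the morula differed from oocytes by -4.26 (1 array against 2), and within the arrays without it by -4.08 (2 against 1). For blastocysts these values were -4.26 and -4.34, so that of GDF9 was about as large in each class. BMP15 S1 differed by -3.28 and -1.43 in morulae and by -3.28 and -1.34 in blastocysts.

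Follistatin was low at nearly all stages and high on the 16-cell array. FST read 104, 124 and 28.2 in oocytes (85.3 ± 50.4, SD, n = 3), so oocyte array 3 lay with the later stages rather than with the other oocyte arrays. The 1-cell arrays read 30.1 and 23.6, and the 2-cell, 4-cell and 8-cell arrays 30.5, 18.4 and 20.2. Morulae read 24.9, 20.8 and 20.7 (22.1 ± 2.39, SD, n = 3) and blastocysts 34.4, 24.1 and 27.2 (28.6 ± 5.30, SD, n = 3). All these arrays after the oocyte, the 16-cell array aside, lay between 18.4 and 34.4, and their stages could not be ordered beyond the spread within stages.

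On the 16-cell array FST read 945, at the 82.1st percentile of that array. This was 4.73 log2 units (26.6-fold) above the 8-cell array and 4.66 above the morula mean. It lay 2.78 log2 units above the highest other array, an oocyte array, a margin that only 87 of 24016 probe sets exceeded. Of all probe sets 11.1% were highest on the 16-cell array and 0.949% were 4-fold or more above every other array there. There was 1 array of that stage, so whether the 16-cell stage or that array alone has high FST cannot be told apart.

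FST in morulae was below oocytes by a log2 difference of -1.25 (SE 0.40, interval -2.13 to -0.36), which did not pass (adjusted p = 0.0536). In blastocysts the difference was -1.03 (SE 0.40, interval -1.91 to -0.14, adjusted p = 0.103), and in 1-cell embryos -1.08 (SE 0.44, interval -2.07 to -0.09, adjusted p = 0.575). Every morula array and every 1-cell array but 1 lay below all oocyte arrays, and the exception, at 30.1, lay above oocyte array 3 only; blastocyst array 1, at 34.4, did so too. Without oocyte array 3 the difference passed in morulae (-1.77, adjusted p = 0.00133), in blastocysts (-1.54, 0.00283) and in 1-cell embryos (adjusted p = 0.0483). With the replicate number as a block FST passed in morulae (-1.25, adjusted p = 0.0374) and not in blastocysts (0.0734). Within the arrays with and without the spike-in control the morula difference was -1.10 and -1.63.

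Since follistatin is made by granulosa and stromal cells as well as by the oocyte, markers of those cells were read on the 16-cell array. Of 24 measured cumulus and granulosa markers 2 were highest there, GJA1, the gap junction protein connexin 43, at 3159 against at most 692 elsewhere, and CD44 at 571 against 175. Of 13 stromal and fibroblast markers 3 were highest there: VIM at 1959 against 86.9, COL1A2 at 2432 against 260 and LUM at 1397 against 256. Against the 8-cell array, 3 of the 24 cumulus and granulosa markers and 5 of the 13 stromal markers were higher by 4-fold or more, where 13.7% of all probe sets were. They included HSD3B1, a steroid enzyme, which read 19.4 and then 780.0, and the matrix proteins SPARC (18.0 and 667) and FN1 (3.84 and 589). At the same step 2 of the 24 were lower by 4-fold or more, STAR (4472 and 537) and TNFAIP6 (641 and 12.9). Of the 13 stromal markers 0 were, where 5.77% of all probe sets were. HAS2, the hyaluronan synthase of the cumulus, read 2003 on the 8-cell array and 4710 on the 16-cell array. It was higher still in morulae, at 8622 to 9257, and in blastocysts, at 6215 to 8720. Some other markers of these lists, named after their values were seen, were low on the 16-cell array. FSHR read 1.44, CYP19A1 24.96, PTX3 12.3, TNFAIP6 12.9, COL1A1 8.43, COL3A1 25.9 and TAGLN 1.00. Low values of FSHR, CYP19A1, COL1A1, COL3A1 and TAGLN were not particular to that array. Their highest signals on any other array were 44.75, 39.36, 18.86, 84.77 and 19.99. PTX3 and TNFAIP6 reached 490 and 1072 elsewhere.

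The summed signal of the cumulus and granulosa list was 12214 on the 16-cell array, against 6432 to 8605 in oocytes. It was 2258 to 10970.3 on the 2-cell to 8-cell arrays, 10828 to 11787 in morulae and, higher still, 15328 to 22170 in blastocysts. That of the stromal list was 7447 on the 16-cell array, against 741 to 1504 in oocytes and 511 to 802 on the 2-cell to 8-cell arrays. It was higher in morulae, at 10169.5 to 12697, and in blastocysts, at 9538 to 16710. These sums mostly follow a few strong probe sets and are no level of a whole list. FN1 alone read 7198 to 8475 in morulae, and HAS2 read 4710 and GJA1 3159 on the 16-cell array. Of the pathway lists, 4 of 12 other ligands were highest on that array (BMP2, GDF5, TGFB1 and TGFB3), as were 1 of 10 receptors (ACVR2B), 2 of 9 antagonists (BAMBI and BMPER) and 3 of 11 targets (MYC, CDKN1A and TSC22D1). These counts stand beside the 11.1% of all probe sets. By 4-fold or more, only BMP2 and BAMBI of these were highest, and TGFB3 read 41.4 against at most 36.3 elsewhere. None of the 9 oocyte genes was. The part of such cells in the FST signal was not tested.

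**Figure D4:**
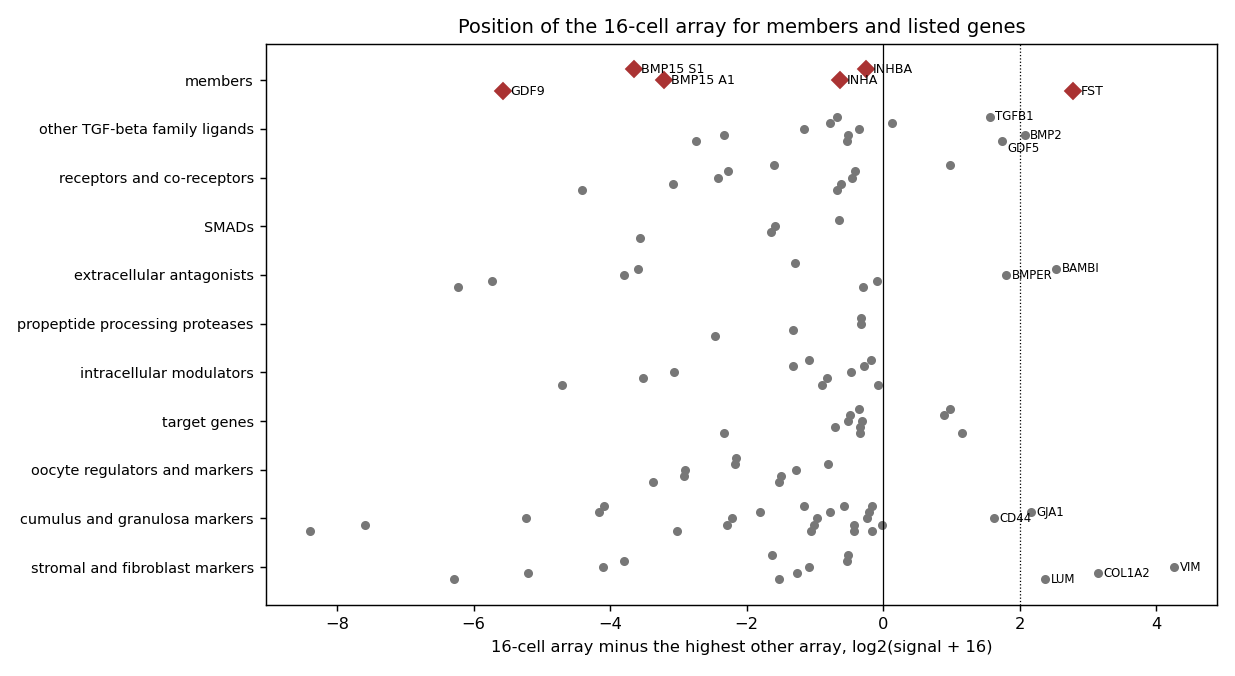
Signal on the 16-cell array minus the highest of the other 14 arrays, as log2(signal + 16) (horizontal axis), for the 6 member probe sets (diamonds) and the genes of 10 lists (grey points, rows offset for legibility); the dotted line marks a 4-fold difference. FST lies at 2.78, GDF9 at -5.58, and the points right of the dotted line are BMP2, BAMBI, GJA1, VIM, COL1A2 and LUM.

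INHA, the alpha subunit of inhibin, stayed within a narrow range of signals. It read 261, 264 and 556 in oocytes (360 ± 169, SD, n = 3), 266 and 286 in 1-cell embryos and 306, 229, 446 and 351 on the 2-cell, 4-cell, 8-cell and 16-cell arrays. Morulae read 317, 295 and 385 (332 ± 46.7, SD, n = 3) and blastocysts 340, 239 and 423 (334 ± 92.1, SD, n = 3). The range of each replicated stage overlapped that of the oocytes, and oocyte array 3 was again the highest of its stage. The highest array had 2.42 times the signal of the lowest. On the log2(signal + 16) scale this range was 1.22, and the median range of all probe sets was 2.56.

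INHBA, the beta A subunit shared by activin A and inhibin A, had a narrower range still. It read 280, 214 and 212 in oocytes (235 ± 38.8, SD, n = 3), 240 and 196 in 1-cell embryos and 246, 290, 194 and 314 on the 4 single arrays in stage order. Morulae read 378, 313 and 290 (327 ± 45.7, SD, n = 3) and blastocysts 246, 208 and 323 (259 ± 58.5, SD, n = 3). All 3 morula arrays lay above all 3 oocyte arrays, the blastocyst range overlapped both, and the log2 range over the 15 arrays was 0.91. The range of INHBA was close to the 10th percentile of the ranges of all probe sets, which was 0.90.

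Neither subunit passed in any comparison. INHA differed from oocytes by -0.28 in 1-cell embryos (interval -1.30 to 0.74), by -0.03 in morulae (-0.95 to 0.88) and by -0.05 in blastocysts (-0.97 to 0.86). INHBA differed by -0.10 (-0.95 to 0.76), 0.45 (-0.31 to 1.22) and 0.12 (-0.64 to 0.89). Against morulae the blastocysts differed by -0.02 for INHA (-0.94 to 0.89) and by -0.33 for INHBA (-1.10 to 0.44). These intervals do not show that either subunit kept its level, and the sign of the small differences in morulae and blastocysts depended on the scaling or on array 3. On every array both probe sets lay between the 68.4th and the 81.2nd percentile.

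The other genes of the pathway were read from lists of ligands, receptors, SMADs, antagonists, proteases, modulators and targets, at the probe set with the highest mean. None of their measured genes passed in 1-cell embryos or between blastocysts and morulae. Across all named genes 26.3% passed in morulae and 26.8% in blastocysts against oocytes. Of 12 measured of 27 other ligands, 1 was higher in morulae and none passed in blastocysts, with medians of -0.08 and -0.12. The one was GDF5, a BMP type ligand, which rose by 1.56 (SE 0.24, adjusted p = 0.00142) from 10.4 ± 5.30 to 62.0 ± 15.8 (SD, n = 3 each), and stood at 280 on the 16-cell array.

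Of 10 measured of 19 receptors and co-receptors, 1 was lower in morulae and none passed in blastocysts (medians -0.14 and -0.08). BMPR1A, a type I BMP receptor, read 542, 1078 and 1290 in oocytes and 137, 102 and 227 in morulae, and fell by 2.50 (SE 0.55, adjusted p = 0.0107). Its other probe set had -2.14 and did not pass. Receptors of GDF9 and BMP15 were among those measured. BMPR2, the type II receptor of GDF9 and BMP15, read 63.0 to 152 in oocytes and 86.7 to 142 in morulae, but 1200 on the 8-cell array. TGFBR1, the type I receptor of GDF9, read 127 to 204 in oocytes and 101 to 187 in morulae. BMPR1B, the type I receptor of BMP15, stayed at 43.2 or less on every array.

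Among 4 measured of 8 SMADs, 2 were lower in morulae and 1 in blastocysts, with medians of -0.29 and -1.15. SMAD2, which carries activin and GDF9 signals, read 5943, 5573 and 4806 in oocytes and 3827, 2170 and 1795 in morulae, and fell by 1.13 (SE 0.32, adjusted p = 0.0349). SMAD5, which carries BMP signals, read 142, 135 and 834 in oocytes and fell by 2.49 in morulae (adjusted p = 0.0178) and by 2.33 in blastocysts (0.0241), while its other probe set had -0.75 and -0.62 and did not pass. Without oocyte array 3 the SMAD5 differences were -1.67 (adjusted p = 0.00938) and -1.51 (0.0156). The SMAD2 call was lost with only the compared stages or without oocyte array 1 or 2 or morula array 2 or 3. That of SMAD5 was lost with only the compared stages or without morula array 1 or 2, and in blastocysts with only the compared stages or without any 1 of the blastocyst arrays, so over the alternatives the count of lower SMADs ran from 0 to 2.

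Of 9 measured of 23 extracellular antagonists, 1 was lower in morulae and 1 in blastocysts (medians -0.24 and -0.42), the same gene in both. SOSTDC1, a secreted antagonist of BMP and WNT signals, read 892, 1010 and 807 in oocytes, 2192 on the 2-cell array and 532 on the 8-cell array. It read 13.4 on the 16-cell array, a log2 step of -4.22, and 20.2 to 27.6 in morulae. It fell by 4.50 in morulae (SE 0.33, adjusted p = 3.19e-05) and by 4.22 in blastocysts (4.24e-05). Its largest step between neighbouring stages was at the same place as that of GDF9. BAMBI, a membrane-bound decoy receptor named here for its value, went the other way at that step, from 68.1 to 6288, and read 9.07 to 230 in morulae.

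None of 4 measured of 10 propeptide processing proteases passed in morulae or blastocysts (medians 0.04 and -0.02). FURIN, which cleaves the propeptides of this family, read 48.8 to 98.3 in oocytes and 66.3 to 68.8 in morulae. Of 11 measured of 19 intracellular modulators 1 was lower in each (medians -0.07 and -0.19). NEDD4L, a ubiquitin ligase of activated SMADs, fell by 1.36 in morulae (SE 0.38, adjusted p = 0.0321), and TAB1, a partner of the kinase MAP3K7, fell by 1.53 in blastocysts (SE 0.36, adjusted p = 0.0146). NEDD4L lost its call with only the compared stages, without the arrays numbered 3, and without oocyte or morula array 2 or 3. TAB1 lost its call with only the compared stages (adjusted p = 0.0515).

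Of 11 measured of 14 target genes of these pathways, 2 were higher and 2 lower in morulae, and 2 and 2 in blastocysts (medians 0.01 and 0.17). ID3, a BMP-responsive inhibitor of basic helix-loop-helix factors, read 11292 to 11676 in oocytes and fell by 6.63 in morulae (SE 0.50, adjusted p = 3.51e-05) and by 6.80 in blastocysts (3.29e-05). MSX1, a homeobox factor that BMP signals induce, fell by 4.57 in morulae (SE 0.92, adjusted p = 0.00669) and fell by 5.34 in blastocysts (0.00295), and its other probe set passed in both as well. Unlike GDF9 and BMP15, both were still high on the 16-cell array, at 9399 and 10015.5, with log2 steps of -0.08 and -0.22 from the 8-cell array.

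TGFBI, an extracellular matrix protein induced by TGF-beta, rose by 5.65 in morulae (SE 0.75, adjusted p = 6.45e-04) and by 3.78 in blastocysts (0.00610). Its signal was 32.5 on the 8-cell array, 1312 on the 16-cell array and 2075 to 6672 in morulae. The other higher target was CCN2, a matricellular protein named here after its values were seen, with 595 to 1348 in oocytes and 3274 to 4591 in morulae. The lists of targets hold genes that many other signals control, and the counts are given beside the 26.3% and 26.8% of all named genes.

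**Figure D5:**
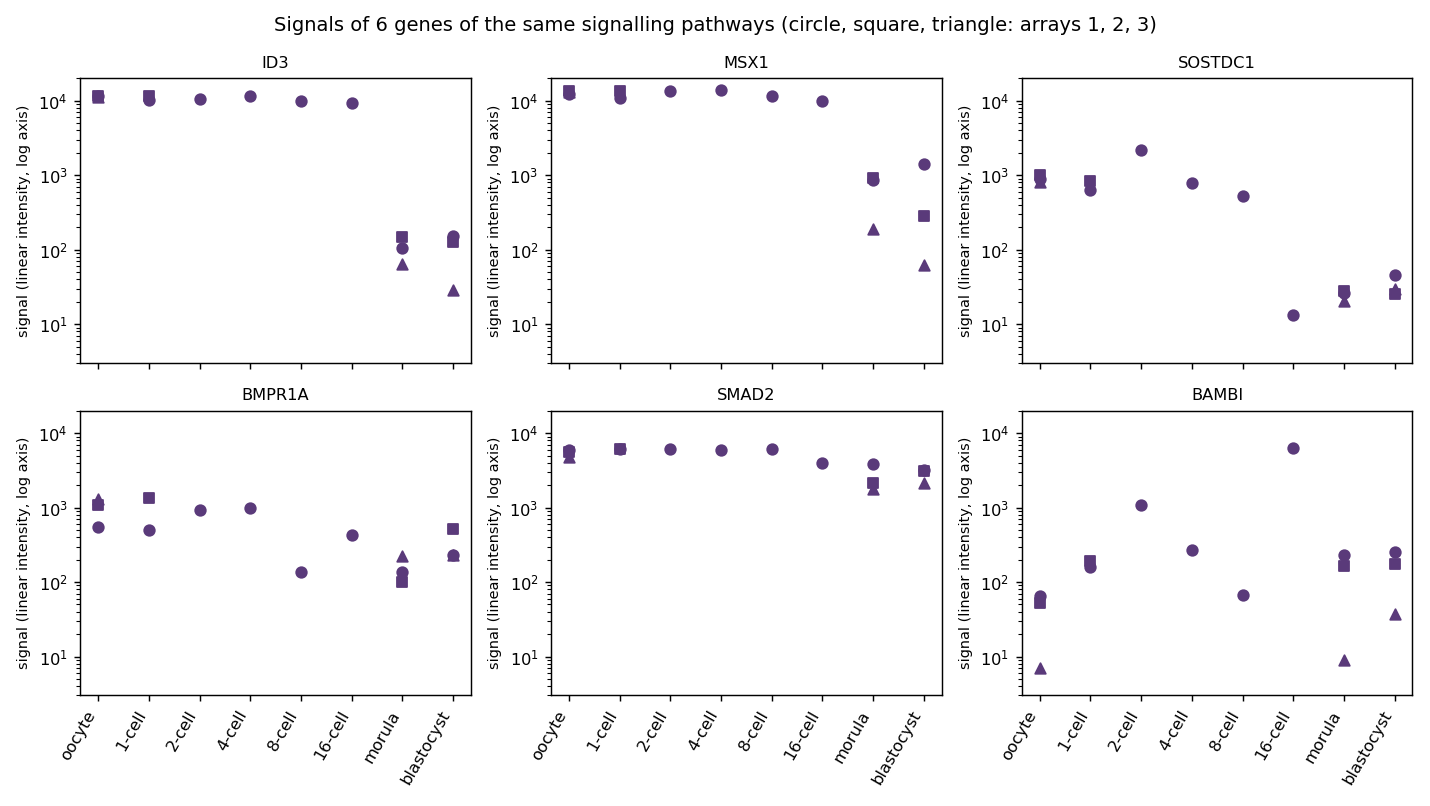
Signal (vertical log axis, linear intensity units) of 6 genes of the same signalling pathways at the 8 stages (horizontal axis), with 1 point per array. SOSTDC1 drops at the 16-cell array as GDF9 does, ID3 and MSX1 are still at 9399 and 10015.5 there and low in morulae, and BAMBI peaks at 6288 on the 16-cell array.

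Of 24 measured cumulus and granulosa markers, 2 were higher and 4 lower in morulae, and 6 higher and 3 lower in blastocysts against oocytes, beside the 26.3% and 26.8% of all named genes that passed. STAR, which carries cholesterol into mitochondria, fell by 3.68 in morulae (adjusted p = 0.00845). TNFAIP6, a hyaluronan-binding protein, fell by 3.45 (adjusted p = 0.0237) at 1 probe set. Its other probe set had a log2 difference of 0.22 and did not pass. The TNFAIP6 call was lost with only the compared stages (adjusted p = 0.0540), without the arrays numbered 3 (0.119), without oocyte array 1 or 3 (0.0813 and 0.0644) and without any 1 of the morula arrays (0.0521 to 0.0681). CTSL, a lysosomal protease, rose by 4.62 in morulae (0.00151) and by 6.59 in blastocysts (2.20e-04), and PTGS2, a prostaglandin synthase, rose by 4.79 in blastocysts (0.00245). Of the 2 other PTGS2 probe sets, 1 passed in blastocysts. HSD3B1, a steroid enzyme, rose by 5.37 in blastocysts against oocytes (4.22e-05) and by 5.51 against morulae (0.00352; 0.291 with only these stages fitted). Of 13 stromal markers 3 were higher in morulae and in blastocysts against oocytes: FN1 by 4.80 and 5.09, PDGFRA by 4.07 and 4.68, and SPARC by 3.58 and 4.08. The other FN1 probe set differed by 0.36 and 0.13 and passed in neither. Of the 2 other PDGFRA probe sets, 1 passed in morulae and 0 in blastocysts. The SPARC call in morulae was lost without oocyte array 2 (adjusted p = 0.0552) or morula array 1 or 2 (0.0674 and 0.0706). PTX3, a protein of the expanded cumulus matrix, read 428, 416 and 20.6 on oocyte arrays 1, 2 and 3, the same split as FST. It read 397 and 490 on the 1-cell arrays, where FST was low, and 9.39 to 16.2 in morulae. Other markers of the list did not all share that split. On the same oocyte arrays PTGS1 read 378, 287 and 32.9, but TNFAIP6 562, 70.2 and 1072 and STAR 2537, 2958 and 2640. The part of cumulus RNA in the oocyte values of FST, GDF9 and BMP15 was not tested.

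Over the 8 stage means the course of GDF9 and that of BMP15 S1 correlated with r = 0.938, while FST, INHA and INHBA correlated with GDF9 at -0.39, -0.29 and -0.61. These are descriptions over 8 points that share the arrays and their scaling. Likeness was sought among 6201 named genes whose highest stage mean was above the median highest stage mean of all probe sets. A gene high at only 1 stage can be among them. The closest to GDF9 were CCL25 (r = 0.998), LIG1 (0.988) and WDR41 (0.988), and 218 genes exceeded 0.9. CCL25, a chemokine, read 440, 1681 and 1771 in oocytes, 1142 on the 8-cell array, 68 on the 16-cell array and 33 to 72 in morulae.

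The closest to BMP15 at that probe set were SLC6A4, the serotonin transporter (0.992), ABI2 (0.988) and SREK1IP1 (0.980), with 193 genes over 0.9. SLC6A4 peaked on the 4-cell array at 2782, as BMP15 did, and read 158 on the 16-cell array. The closest to FST were VIM (0.990), PAM (0.984) and NCF1 (0.980), with 79 genes over 0.9, and each of these has its highest signal on the 16-cell array. For FST the correlation therefore rests on that 1 array. INHA had 3 genes over 0.9, led by DCAF17 (0.931), MGRN1 (0.924) and DMTF1 (0.914), and INHBA 14, led by NCBP2 (0.970), PSMB3 (0.943) and COA8 (0.940). Both had a small range over the stages, 4 of which had 1 array each.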

How the data were processed

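Per the labels, RNA went through 3 amplification rounds and a biotin label before hybridization. The authors deposited a single table of linear signal intensity, 24128 probe sets by 15 arrays; how probes were summarised, the arrays scaled, and by which program, is not given in the sources used. Values were taken as deposited, with array medians of 39.7 to 62.1. Quantile scaling and median centring were run as alternatives, and under both FST passed in morulae and in blastocysts. After removal of 112 control probe sets, 24016 were tested on log2(signal + 16). Of these, 13292 had 1 gene symbol, 86 several and 10638 none; 13263 had an identifier in the RefSeq table of ARS-UCD2.0. Stages and numbers came from the titles.

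limma (version 3.58.1, R 4.3.3) fitted a mean per stage to all 15 arrays, with a variance trend, 7 residual degrees of freedom from the 4 replicated stages, and p-values adjusted by Benjamini-Hochberg across all 24016 at 0.05. Titles call the replicates biological; the p-values reflect only the spread between these samples, and their number limits the precision. Deviations from stage means of same-numbered arrays correlated at 0.107 to 0.182 (morula, oocyte) and 0.276 to 0.285 (blastocyst, oocyte). They correlated at 0.106 to 0.306 (blastocyst, morula) and at 0.183 and -0.12 (1-cell, oocyte). No label says that the numbers pair arrays, so the main fit held no replicate block. The replicate block was fitted only as an alternative. Scripts were tested on simulated data.

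Members, lists and tests were chosen with earlier results of these data known. Every member probe set was named; from each list, up to 3 genes past the test with the largest log2 change per comparison; others are named where the text says so, or as members' receptors, as FURIN, as stage or marker values, or for their position on the 16-cell array, after their values were seen. For likeness, the 3 genes with the highest r were named. Alternatives were quantile scaling, median centring, a filter on the lowest 33%, pseudocounts of 1 and 64, eBayes without the trend or robust, only the compared stages, the replicate block, the spike-in class, and each array, or all numbered 3, left out.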

Additional observations from a re-analysis of the deposited data

Results flagged for a closer look

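Several member signals on single arrays, which entered no test, lay above every array of the replicated stages. FST read 945 on the 16-cell array. BMP15 S1 read 5838 on the 4-cell array and 5556 on the 8-cell array. BMP15 A1 read 172 on the 2-cell array. Each is 1 array, with no replicate of its stage to set beside it.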

How the results depend on the processing

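Of 398 member values under the alternatives 348 kept their direction and their side of the threshold and 25 changed sign, each of these a difference that passed under no setting; the cause was not tested. GDF9 kept both calls throughout. The number of member probe sets past the test was 2 in 1-cell embryos without the arrays numbered 3 (BMP15 and FST; 419 of all probe sets passed there, against 65), and 1 in morulae and 1 in blastocysts with only the compared stages (GDF9; 3589 and 3518 of all passed, against 4550 and 4624), which leaves fewer degrees of freedom. With 1 array left out it ran from 0 to 1, 1 to 3 and 1 to 3. With the replicate block it was 3 in morulae, where FST joined (adjusted p = 0.0374) and 5513 of all passed, and the block changed no other member call. FST in morulae also passed with quantile scaling (0.0232), centring (0.0169), the filter (0.0367), the spike-in block (0.0485) and without the arrays numbered 3 (0.00271); in blastocysts with quantile scaling (0.0490), centring (0.0372) and without the arrays numbered 3 (0.00512). In 1-cell embryos the sign turned for BMP15 A1 with centring (-0.015) and for INHA without the arrays numbered 3 (0.068). In morulae it turned for INHA with the spike-in block (0.10) and without the arrays numbered 3 (0.21), and for INHBA with quantile scaling (-0.014). In blastocysts it turned for INHA under the same settings (0.078 and 0.11), and for INHBA with quantile scaling (-0.34), centring (-0.056) and without the arrays numbered 3 (-0.10). In blastocysts against morulae it turned for INHA with quantile scaling (0.0093). With 1 array left out, BMP15 A1 ran from -0.54 to 0.70, INHA from -0.45 to 0.068 and INHBA from -0.24 to 0.041 in 1-cell embryos; INHA from -0.21 to 0.31 in morulae; INHA from -0.23 to 0.29 and INHBA from -0.039 to 0.26 in blastocysts; and BMP15 S1 from -0.11 to 0.24 and INHA from -0.20 to 0.19 in blastocysts against morulae. BMP15 A1 was among the probe sets that the filter removed. Quantile scaling and centring moved the median of all probe sets from 0.04 to -0.06 and -0.14 in morulae and from 0.01 to -0.08 and -0.16 in blastocysts.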
